A study of Rattus norvegicus with 15 samples.

Results

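Glucose fluctuation was set against sustained hyperglycaemia in the diabetic rat heart by comparing 5 arrays labelled GF with 5 arrays labelled DM, of 15 arrays in the series. MicroRNA (miRNA) levels were measured in heart tissue of male Sprague-Dawley rats. DM rats received streptozotocin at 60 mg/kg intravenously and had plasma glucose above 300 mg/dL. GF rats received the same streptozotocin dose, and plasma glucose above 300 mg/dL is given for them too. They were in addition fasted for 24 h and given insulin at 0.5 IU/kg intraperitoneally to make glucose swing. Both groups therefore carried the streptozotocin diabetes, but fasting and insulin were given to GF alone, so fasting, insulin and the glucose swing cannot be told apart. The remaining 5 arrays, of vehicle-treated control hearts, entered the estimate of the spread and give a reference level. The question was which cardiac miRNAs differ when diabetic glucose swings from when it stays high. All 350 rat miRNAs on the array were taken, of which 165 had a probe well above background on at least 3 of the 5 arrays of some group and were tested.

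Streptozotocin destroys the insulin-producing beta cells of the pancreas, so the diabetes of these animals is one of insulin loss. A miRNA is a short RNA that guides a silencing complex to messenger RNAs, mainly through pairing of its seed, bases 2 to 8 from the 5′ end, and lowers the output of those messengers. In heart muscle, miR-1, miR-133, miR-208 and miR-499 are made by cardiomyocytes. Other miRNAs in a piece of heart come from endothelium, fibroblasts, smooth muscle and blood cells. In such bulk tissue, fewer cells of a type and less of a miRNA per cell cannot be told apart.

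The mature sequences of the miRNAs on which the comparison turns are printed here from RefSeq (assembly GRCr8), 5′ to 3′, with the seed in capitals. The first set holds 5 of the 6 miRNAs that were lower in GF in the fit of all 15 arrays. A tested relative follows 4 of them: the other arm of the hairpin (miR-142-3p), a miRNA of the same seed (miR-146b, miR-181c) or a same-seed neighbour on the chromosome (miR-195). miR-342-3p is shown alone, and miR-378 is named only.
miR-142-5p: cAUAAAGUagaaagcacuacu
miR-142-3p: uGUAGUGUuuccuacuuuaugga
miR-146a: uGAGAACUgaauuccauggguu
miR-146b: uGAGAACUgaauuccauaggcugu
miR-181d: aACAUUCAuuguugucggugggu
miR-181c: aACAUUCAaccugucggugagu
miR-342-3p: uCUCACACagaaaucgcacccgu
miR-497: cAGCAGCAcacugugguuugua
miR-195: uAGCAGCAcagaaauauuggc
The second set holds the miRNAs whose GF minus DM differences were farthest from 0 in either direction, and miR-101a, whose GF samples all lay above the DM samples.
miR-141: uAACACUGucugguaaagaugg
miR-200c: uAAUACUGccggguaaugaug
miR-208: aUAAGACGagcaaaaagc
miR-196c: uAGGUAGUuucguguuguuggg
miR-101a: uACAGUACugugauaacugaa
In GRCr8, miR-142-5p lies at chr10:73055119-73055139 and miR-142-3p at chr10:73055155-73055177, both on the plus strand. miR-497 (chr10:55450172-55450193) and miR-195 (chr10:55450509-55450529) are neighbours on that strand too, as are miR-181c (chr19:40888314-40888335) and miR-181d (chr19:40888484-40888506). miR-141 (chr4:159209540-159209561) and miR-200c (chr4:159209969-159209989) lie side by side on the minus strand. miR-208 is at chr15:32395568-32395585 on the minus strand. Of the 165 tested miRNAs, 127 were matched to a RefSeq mature sequence, with 91 different seeds.

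Some arrays could not be told apart beyond the measurement error. Whether every array came from its own animal is not in the labels, and p-values measure the spread between these samples, which may be technical. In 5 pairs of arrays of the same group, the values differed by less than the error stated by the scanner software (reduced chi-square 0.243 to 0.630), while the other 100 pairs lay between 1.07 and 7.70. Whether the arrays of such a pair share an extract is not in the labels. Each pair was averaged and counted as 1 sample, which left 3 GF samples (replicates 1 and 5, replicates 2 and 4, replicate 6), 3 DM samples (replicate 1, replicates 2 and 4, replicates 3 and 5) and 4 control samples. The DM sample of replicates 3 and 5 stood apart from the other DM samples. Its arrays differed from the other DM arrays by reduced chi-squares of 4.87 to 5.59, and from the GF arrays by 2.52 to 3.63. DM replicate 1 was in turn as near to control replicate 5 (1.15) as to DM replicate 2 (1.14). The labels were kept as given, and whether samples were exchanged between groups was not tested. An exchange would alter every GF minus DM value, including those with a sample left out. From 166 to 190 miRNAs were detected per array, with 0 saturated spots, and precision throughout is limited by how few arrays there were. The 75th percentile of the unscaled probe signal, an array brightness, was 59.5 ± 8.48 (SD, n = 3) in GF and 47.7 ± 7.13 (SD, n = 3) in DM. The difference of 11.8 had a two-sided exact permutation p of 0.2, where 0.1 is the smallest that 3 against 3 samples allow. It was 13.7 within slide 1 and 8.76 within slide 2. The arrays of each averaged pair lay on different slides, so the slides shared most of the GF and DM samples.

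Between GF and DM hearts, most miRNAs differed by little, and the largest differences were in miR-141 and miR-200c, which were higher in GF, and in miR-196c and miR-208, which were lower. Over the distinct samples, 0 of 165 miRNAs (0%) passed an adjusted p of 0.05 (limma, Benjamini-Hochberg adjustment over all tested miRNAs), and 18 (10.9%) had an unadjusted p under 0.05, of which 2 were higher and 16 lower in GF. Signals are given on the log2 scale, after arrays were set to a common 75th percentile of the 254 probes detected on all of them. On that scale 117 miRNAs were lower and 48 higher in GF, with a median difference of -0.08 (quartiles -0.19 and 0.02). The sign was the same on both slides for 139 of the 165. As the slides shared most of the GF and DM samples, this agreement is not a separate check. The median half-width of the 95% confidence interval of a difference was 0.27, so a typical miRNA could differ by that much in these samples without its interval leaving 0. The median SD between the 2 arrays of a pair was 0.065, against 0.14 between the GF samples and 0.13 between the DM samples. The pairs were chosen for their close agreement, so the value of 0.065 is low by that choice and is no separate measure of technical noise. Between the difference and the mean level of a miRNA, Pearson's r was 0.11 and Spearman's rho 0.15 across the 165 miRNAs, which share their arrays and are not independent.

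**Figure D1:**
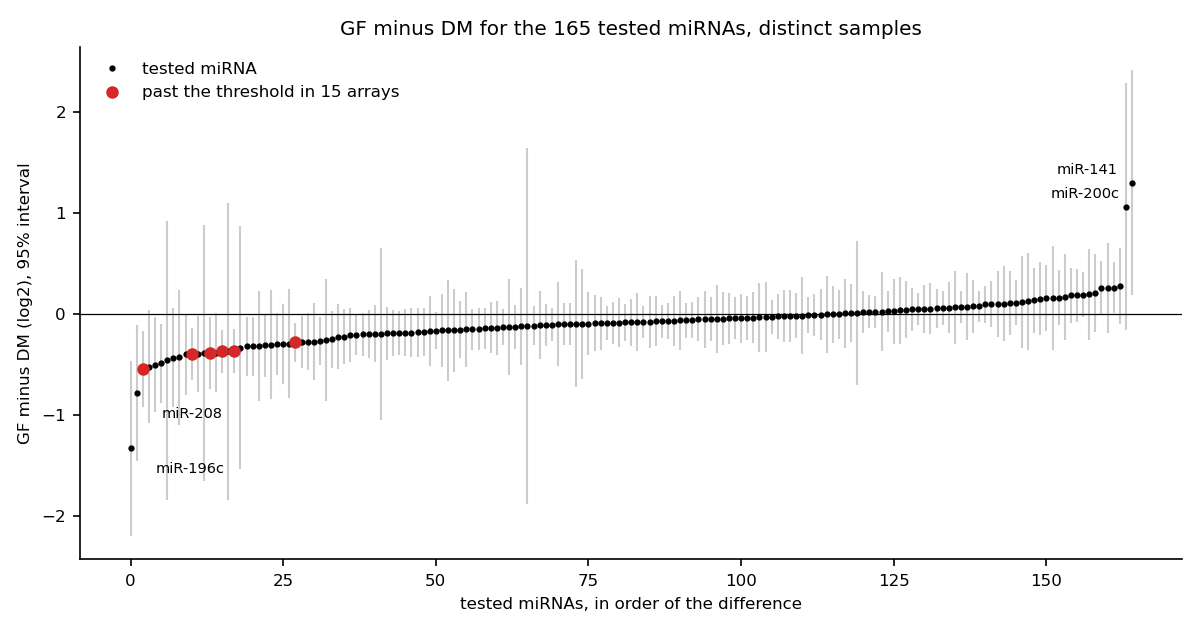
GF minus DM differences (log2, vertical axis) of the 165 tested miRNAs in order of size, over distinct samples; grey bars are 95% confidence intervals from limma and red points the 6 miRNAs past the threshold when 15 arrays were taken as independent. miR-141 (1.30) and miR-200c (1.07) lie at the upper end, miR-196c (-1.33) and miR-208 (-0.78) at the lower.

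When all 15 arrays were taken as independent, 6 of the 165 miRNAs (3.64%) passed the threshold in limma, and all 6 were lower in GF: miR-142-5p, miR-146a, miR-181d, miR-342-3p, miR-378 and miR-497 (46 had an unadjusted p under 0.05). With the near-identical arrays held as a random block, 0 passed (19 at an unadjusted p under 0.05). The count of 6 was 12 without DM replicate 1, 13 without DM replicate 5, and 2 (miR-342-3p and miR-378) without DM replicate 2 or without GF replicate 4. It also moved with the scaling: 6 higher and 5 lower passed with quantile normalization, 11 higher and 0 lower with no scaling, 0 higher and 13 lower with normexp background correction, 4 higher and 0 lower with the authors' deposited log2 values, and 0 with the other percentile or the control spots. The values over distinct samples of the 6 are described next, and their adjusted p (limma) over distinct samples was 0.262 for each except miR-181d, at 0.401.

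Among the 6, miR-142-5p, miR-146a, miR-342-3p and miR-181d are miRNAs that blood cells make in quantity. miR-142 is restricted to blood lineages, and its 5p arm read 6.21, 5.84 and 6.18 in the GF samples and 6.85, 6.80 and 6.22 in the DM samples. The GF samples all lay below the DM samples, but the lowest DM sample, that of replicates 3 and 5, was almost level with the highest GF sample. The difference was -0.54 (SE 0.17, 95% confidence interval -0.92 to -0.17). The other arm of the hairpin, miR-142-3p, differed by a like amount, -0.49 (SE 0.18), with 10.73, 10.39 and 10.77 in GF and 11.34, 11.29 and 10.72 in DM. There the same DM sample fell inside the GF range, and without it the differences were -0.75 (SE 0.12) for the 5p arm and -0.69 (SE 0.14) for the 3p arm.

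miR-146a, induced by NF-kappaB and known to repress the adaptors TRAF6 and IRAK1, read 10.34, 10.31 and 10.35 in GF and 10.74, 10.85 and 10.51 in DM. The GF samples were tightly grouped (SD 0.023) and all below DM, a difference of -0.37 (SE 0.099, 95% confidence interval -0.59 to -0.14). Its same-seed relative miR-146b differed by -0.27 (SE 0.11), from 6.08, 6.34 and 6.18 in GF to 6.47, 6.61 and 6.33 in DM, where 1 DM sample lay within the GF range. Control hearts read 10.69 to 10.91 for miR-146a, above all 3 GF samples.

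miR-342-3p, made from an intron of the Evl gene and abundant in lymphoid and myeloid cells, read 6.86, 6.68 and 7.04 in GF. The DM samples were close together at 7.25, 7.25 and 7.27, all above GF, and the difference was -0.40 (SE 0.11, 95% confidence interval -0.65 to -0.14). This miRNA passed in the 15 arrays whichever single GF or DM array was left out (10 of 10, adjusted p 0.0076 to 0.046 in limma). miR-378 did so too (10 of 10), miR-146a and miR-497 in 8 of 10 cases, miR-181d in 5 and miR-142-5p in 3. Most of these arrays have a near-identical partner that stayed in the fit, so leaving out an array seldom removed a whole sample. With a whole distinct sample left out, the adjusted p in limma was 0.145 to 0.691 for miR-342-3p and 0.0853 to 0.691 for miR-378.

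miR-181d belongs to a family known for tuning the antigen sensitivity of T cells. Its signal was 6.33, 6.24 and 6.59 in GF and 6.62, 6.85 and 6.84 in DM, with no overlap and a difference of -0.38 (SE 0.16, 95% confidence interval -0.74 to -0.03). Its 3 relatives with the same seed were also lower, by smaller amounts: -0.21 for its neighbour miR-181c, -0.12 for miR-181b and -0.10 for miR-181a. With no scaling between arrays all 4 were higher in GF (family median 0.28, against 0.35 for all tested miRNAs).

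miR-378 lies in an intron of Ppargc1b, which encodes the metabolic coactivator PGC-1 beta, and is known from energy metabolism in muscle. It read 10.02, 10.05 and 9.79 in GF and 10.33, 10.37 and 10.28 in DM, a difference of -0.37 (SE 0.094, 95% confidence interval -0.58 to -0.16). Control hearts, at 10.29, 10.05, 10.11 and 10.18, lay mostly between the groups, and the lowest control sample was level with the highest GF sample. The other arm, miR-378*, was at 8.54, 8.53 and 8.51 in GF against 8.57, 8.61 and 8.79 in DM. These samples did not overlap either, with a difference of -0.13 (SE 0.079).

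miR-497 and miR-195 are transcribed together and share the seed of miR-15 and miR-16, a family that holds cells out of the cell cycle. miR-497 read 11.03, 10.86 and 11.08 in GF and 11.36, 11.30 and 11.16 in DM, a difference of -0.28 (SE 0.087, 95% confidence interval -0.48 to -0.09). miR-195 followed at -0.17 (SE 0.083), again with all GF samples below all DM samples. The rest of the seed family showed smaller values or the other sign: -0.08 for miR-15b, -0.06 for miR-16 and 0.16 for miR-322.

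A second probe was on the array for each of the 6 miRNAs and gave a lower GF signal as well. Its GF minus DM difference was -0.51 for miR-142-5p, -0.51 for miR-146a, -0.56 for miR-181d, -0.46 for miR-342-3p, -0.40 for miR-378 and -0.37 for miR-497. For all but miR-142-5p, the GF samples lay below the DM samples in the second probe too. Within slides, each of the 6 was lower in GF on both, from -0.26 (miR-378) to -0.61 (miR-142-5p) on slide 1 and from -0.21 (miR-497) to -0.47 (miR-181d) on slide 2. The slides shared most of the GF and DM samples, so they are not separate checks.

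**Figure D2:**
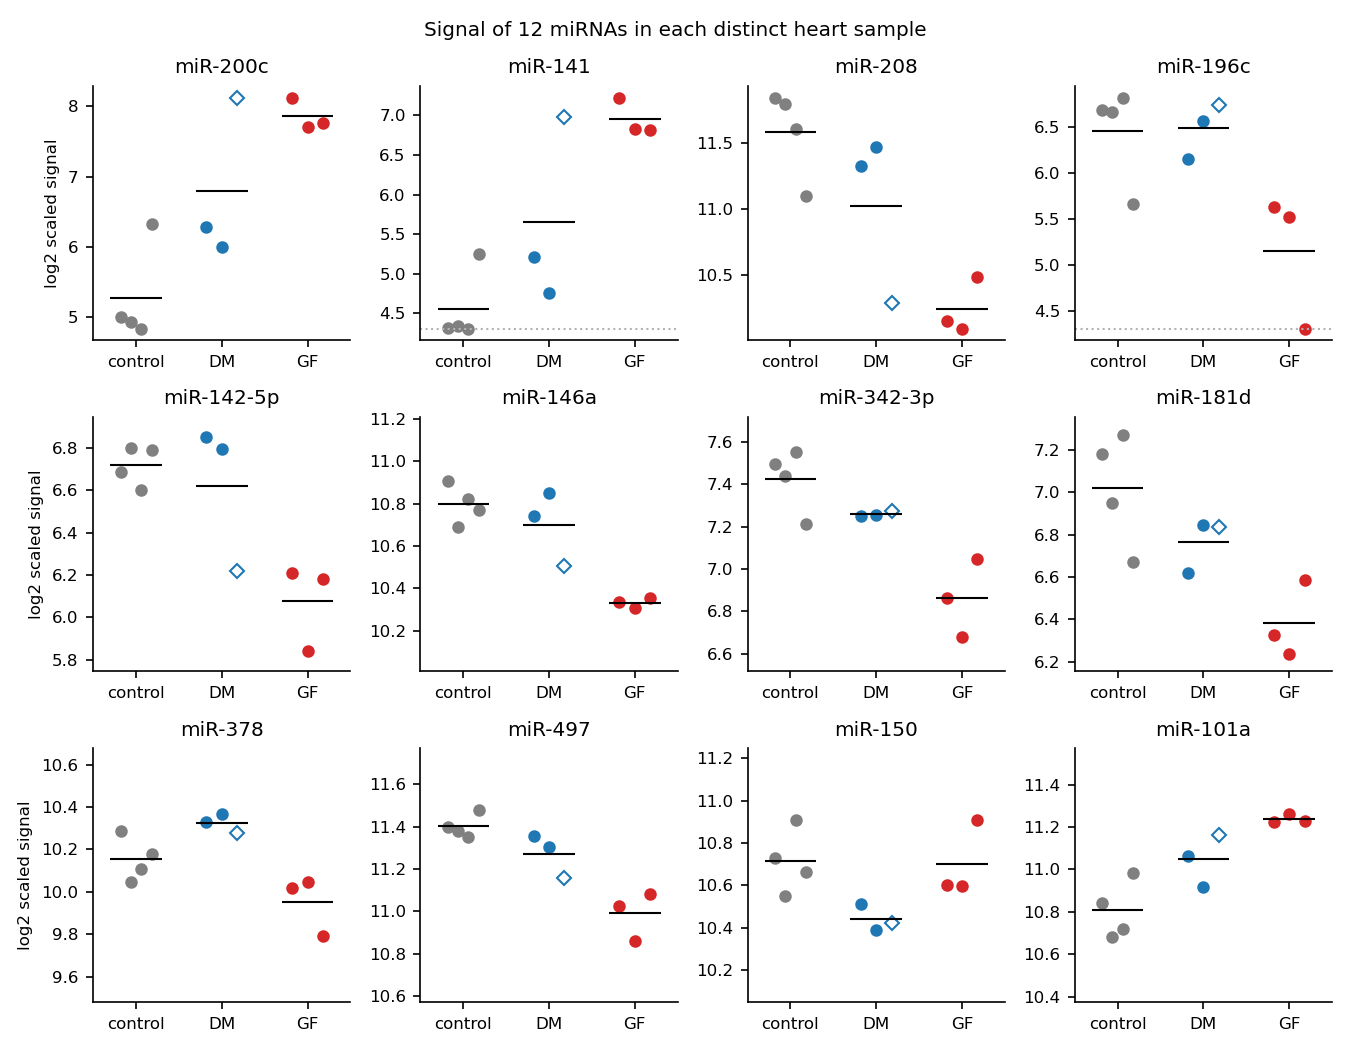
Log2 scaled signal (vertical axes, each with its own range) of 12 miRNAs in the 4 control, 3 DM and 3 GF samples; points are distinct samples, black lines group means, the open diamond is the DM sample of replicates 3 and 5, and dotted lines mark the floor of 4.31. The diamond sits among the GF samples for miR-200c, miR-141 and miR-208 and with the other DM samples for miR-342-3p and miR-378.

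The sign of 5 of these 6 differences depended on the scaling between arrays, with GF arrays brighter on average. With no scaling, the median of all tested miRNAs was 0.35 and 91.5% of them were higher in GF. On that scale miR-146a stood at 0.08, miR-181d at 0.06, miR-342-3p at 0.05, miR-378 at 0.08 and miR-497 at 0.16, and miR-142-5p at -0.10, each below the median. Scaled to the 75th percentile over all probes, the median was 0.04, and the 6 lay between -0.42 and -0.16. With quantile normalization the median was 0.03 and the 6 lay between -0.41 and -0.24; scaled to the hur control spots it was -0.18 and they lay between -0.64 and -0.38. A value within an array shows unequal change between miRNAs and not which of them changed.

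**Figure D3:**
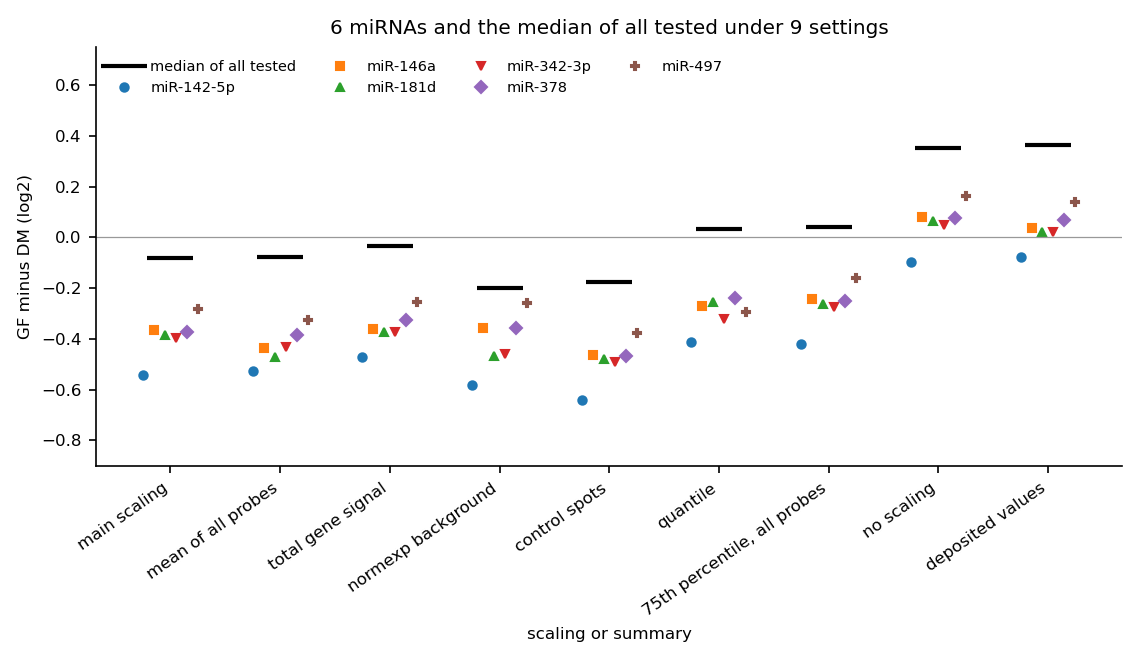
GF minus DM difference (log2, vertical axis) of 6 miRNAs, and the median of all tested miRNAs as a black bar, over distinct samples under 9 scalings or summaries. Each of the 6 lies below the bar in every setting shown, and 5 of them lie above 0 with no scaling as well as in the authors' deposited values.

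miR-141 and miR-200c, which repress the ZEB transcription factors and hold epithelial cells in their epithelial state, had the 2 highest differences. miR-200c read 8.13, 7.71 and 7.76 in GF and 6.28, 6.01 and 8.11 in DM. The GF samples and the DM sample of replicates 3 and 5 were high, and the other DM samples were low. The difference was 1.07 (SE 0.55, 95% confidence interval -0.16 to 2.29, adjusted p = 0.414 in limma), or 2.09-fold. The pattern was the same for miR-141, at 7.22, 6.82 and 6.82 in GF and 5.21, 4.76 and 6.98 in DM, a difference of 1.30 (SE 0.50, 95% confidence interval 0.19 to 2.42, adjusted p = 0.401). Both arrays of that DM sample showed it: miR-200c read 8.12 on DM replicate 3 and 8.11 on DM replicate 5, and miR-141 read 6.97 on DM replicate 5 and slightly more on replicate 3.

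Without that sample, miR-141 was 1.97 (SE 0.29, adjusted p = 0.0149 in limma) and miR-200c 1.72 (SE 0.40, adjusted p = 0.0474) above DM. The sample stood out through these same values, at GF level, so leaving it out had to widen both differences. The adjusted p values of that fit are therefore no separate support. Leaving out any other single sample kept miR-141 between 0.86 and 1.37 and miR-200c between 0.67 and 1.14, all with adjusted p above 0.05. With no scaling between arrays, miR-141 was the 1 miRNA that passed over distinct samples (1.75, SE 0.39, adjusted p = 0.0308). The control samples were lower than all GF samples for both, at 4.83 to 6.33 for miR-200c and 4.31 to 5.25 for miR-141, which was well above background on only 2 of 5 control arrays. The second probe of miR-200c differed by 1.09, while that of miR-141 was near the floor in both groups (4.50 and 4.47) and differed by 0.03. With normexp background correction the differences were smaller, 0.55 for miR-200c and 0.40 for miR-141.

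The relatives encoded at another locus were near background. miR-200a lay between 4.31 and 4.71 in GF and between 4.31 and 4.88 in DM, and miR-200b between 4.31 and 4.57 and between 4.31 and 4.84, with 2 of 3 GF samples at the floor for each. Their differences of -0.16 and -0.22 turned to 0.18 and 0.23 with the total gene signal. Of the 7 epithelial miRNAs listed, 4 were tested, 2 were higher and 2 lower in GF (4 higher with the total gene signal), and miR-429, miR-203 and miR-205 were not tested because their probes were too dim. The summed scaled signal of the list was 421 to 538 in GF, 202 to 502 in DM and 147 to 225 in control samples. The part of admixed epithelial tissue in the difference was not tested.

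miR-208, encoded in an intron of the alpha cardiac myosin heavy chain gene Myh6, showed the reverse pattern. It read 10.15, 10.10 and 10.48 in GF and 11.32, 11.47 and 10.29 in DM, so the DM sample of replicates 3 and 5 again lay within the GF range. The difference was -0.78 (SE 0.30, 95% confidence interval -1.46 to -0.11, adjusted p = 0.401 in limma), a DM signal 1.72-fold that of GF. Without that DM sample it was -1.15 (SE 0.22, adjusted p = 0.024 in limma), and without any other single sample it lay between -0.90 and -0.56. Leaving out a DM sample at GF level had to widen the difference, so that adjusted p is no separate support. Control samples read 11.10 to 11.84, all above GF. Both probes were lower, by -0.78 and -0.85, and the difference kept its sign with no scaling (-0.34).

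The other muscle miRNAs were close to 0. miR-1 differed by -0.004 (SE 0.13), miR-133a by 0.03, miR-133b by -0.14 and miR-499, from a slow myosin gene, by -0.08, and miR-206, a skeletal muscle miRNA, was not tested. Of the 5 tested, 1 was higher and 4 lower, 0 passed, and their median of -0.08 equalled that of all tested miRNAs at the printed precision. The summed signal of the muscle list was 114730 to 132570 in GF and 126530 to 135560 in DM, so that the defining markers of heart muscle were present in every sample. The difference of miR-208 thus stood beside differences from -0.14 to 0.03 in the other cardiomyocyte miRNAs.

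Without the DM sample of replicates 3 and 5, a total of 7 miRNAs passed the threshold over distinct samples: miR-141 and miR-200c, which were higher, and miR-142-3p, miR-142-5p, miR-146a, miR-208 and miR-9, which were lower. For miR-9, a miRNA of the nervous system near background here, the difference was then -0.59 (SE 0.13, adjusted p = 0.0409 in limma). Leaving out any other single GF or DM sample gave 0. Of the 165 miRNAs, 140 kept their sign without that sample, and 17 moved by more than 0.2. For each of the 7, that sample lay nearer to the GF mean than to the mean of the other DM samples. Leaving it out therefore had to widen these differences, and the count of 7 is no separate support for them. The fit without it has 2 DM samples, and the choice was among the alternatives listed with earlier results of these data known.

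**Figure D4:**
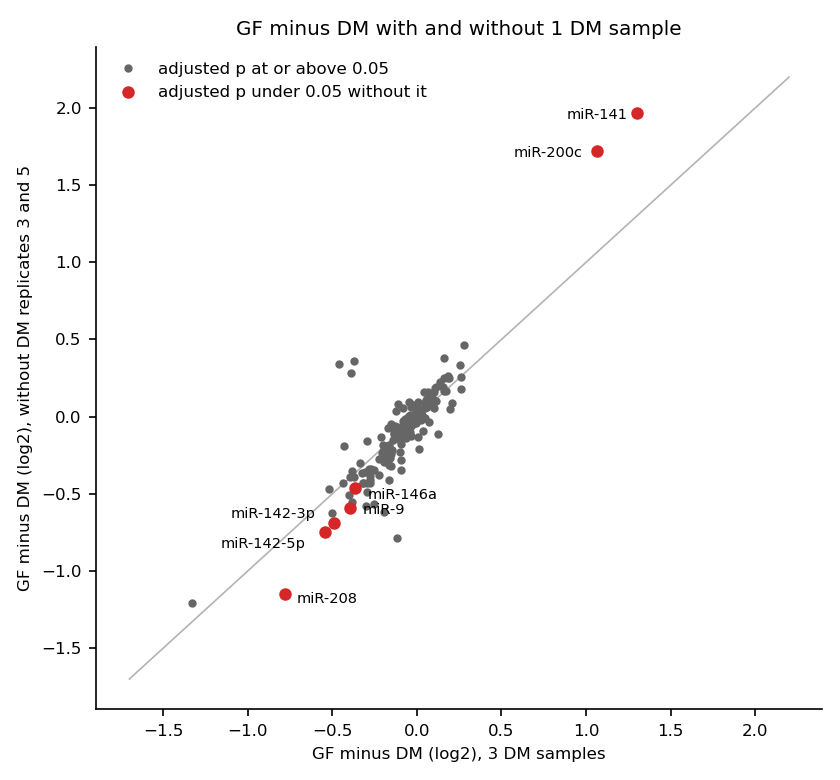
GF minus DM difference (log2) of the 165 tested miRNAs with all 3 DM samples (horizontal axis) and without the DM sample of replicates 3 and 5 (vertical axis); the line marks equal values and red points the 7 miRNAs with an adjusted p under 0.05 in the latter fit. miR-141 moves from 1.30 to 1.97, miR-200c from 1.07 to 1.72 and miR-208 from -0.78 to -1.15.

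That DM sample differed from the mean of the other DM samples by more than 1 on the log2 scale for 8 of the 165 miRNAs and by more than 0.5 for 25, while the other DM samples differed from each other by more than 1 for 1 miRNA and by more than 0.5 for 7. The 8, named after their values were seen, were miR-139-3p, miR-212, miR-347, miR-141 and miR-200c, which were higher in it, and miR-31, miR-204 and miR-208, which were lower. For miR-141, miR-200c and miR-208 its level was that of the GF samples. For others it lay outside both: miR-347 was 9.28 in it, 7.54 and 7.01 in the other DM samples and 7.26 to 7.87 in GF, with control samples from 7.54 to 9.28. Likewise miR-212 was 8.16 in it, 6.49 and 5.44 in the other DM samples, 5.68 to 6.87 in GF and 6.66 to 8.44 in control. miR-139-3p, which is among the 10 lowest GF minus DM differences at -0.46 (SE 0.62), stood at 0.34 without this sample, at -0.10 without GF replicate 6 and at -0.98 without DM replicates 2 and 4.

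miR-196c, a miRNA of the Hox clusters, had the lowest difference of all, -1.33 (SE 0.39, 95% confidence interval -2.20 to -0.47, adjusted p = 0.262 in limma). It read 5.63, 5.52 and 4.31 in GF and 6.15, 6.57 and 6.74 in DM, with no overlap. The lowest value, of GF replicate 6, was at background, and without that sample the difference was -0.91 (SE 0.33). The miRNA was well above background on 4 of 5 GF arrays, and the GF samples lay below the DM samples in all 4 of its probes. Its other probes were dim in GF, with means of 4.32, 4.73 and 4.71 not far above the floor of 4.31. They differed by -0.30, -1.035 and -1.09, so their sizes are limited by the background. Control arrays spread from 5.67 to 7.58. The near-identical control arrays 1 and 3 read 7.58 and 5.79, and the SD between the arrays of a pair was 0.66 for this miRNA.

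Further down the lower side were pairs and groups of neighbouring miRNAs. miR-214 (-0.50, SE 0.21), miR-199a-5p (-0.38, SE 0.17) and miR-199a-3p (-0.32, SE 0.13), from a locus active in fibroblasts, all had a lower GF mean, with an adjusted p of 0.401 each in limma. miR-214 read 8.44, 7.71 and 8.16 in GF and 8.68, 8.77 and 8.37 in DM, so that the highest GF sample exceeded the lowest DM sample, and without GF replicates 2 and 4 the difference was -0.31. miR-194 (-0.52, SE 0.25) and miR-192 (-0.43, SE 0.22), neighbours on chromosome 1 and known from liver, gut and kidney, varied within GF more than within DM. miR-192 read 6.63, 7.09 and 6.28 in GF but 7.15, 7.04 and 7.11 in DM. Without GF replicate 6 the differences were -0.26 for miR-194 and -0.24 for miR-192, and without GF replicates 2 and 4 they were -0.77 and -0.65. miR-221, of endothelium and smooth muscle, stood at -0.40 (SE 0.18), and miR-34b, of the p53-responsive miR-34 family, at -0.43 (SE 0.30) with overlapping groups. The latter was -0.73 without DM replicate 1 and -0.19 without DM replicates 3 and 5.

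All 3 GF samples lay below all 3 DM samples for 21 miRNAs (12.7%) and above them for 3 (1.82%). Besides those already described, the 21 included miR-23a, miR-23b, miR-27a and miR-27b, from paralogous loci active in endothelium. miR-27a read 13.09, 13.06 and 13.13 in GF and 13.56, 13.39 and 13.16 in DM, a difference of -0.28 (SE 0.12). All 5 tested members of the list of miR-23, miR-27 and miR-24 were lower in GF (median -0.19), and all 5 were higher with no scaling (median 0.26). miR-22, abundant in heart muscle and linked to its growth, was also among the 21, at 15.41, 15.10 and 15.38 in GF and 15.72, 15.61 and 15.53 in DM (-0.32, SE 0.13). miR-126, made by endothelial cells, differed by -0.18 (SE 0.11).

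The 3 miRNAs with all GF samples above all DM samples were miR-150, miR-101a and miR-26a. miR-150, a miRNA of mature lymphocytes, read 10.60, 10.60 and 10.91 in GF and 10.51, 10.39 and 10.42 in DM. The difference was 0.26 (SE 0.11, 95% confidence interval 0.01 to 0.52, adjusted p = 0.401 in limma), and control samples at 10.55 to 10.91 covered the GF range. miR-101a, which represses the chromatin enzyme Ezh2, read 11.22, 11.26 and 11.23 in GF and 11.06, 10.92 and 11.16 in DM (0.19, SE 0.098). Its control samples, at 10.68 to 10.98, lay below all GF samples, and 1 of them lay above the lowest DM sample. Leaving out 1 sample gave 0.13 to 0.25 for miR-101a (lowest without DM replicates 2 and 4) and 0.16 to 0.31 for miR-150 (lowest without GF replicate 6). miR-26a differed by 0.05 (SE 0.07), less than the spread of most miRNAs, and by -0.05 when scaled to the hur control spots.

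Members of the miR-17-92 cluster, which Myc switches on in growing cells, and of its paralogues were mostly higher in GF. Of 9 tested members 8 were higher and 1 lower, with a median of 0.14 against -0.08 for all tested miRNAs, and 0 passed. The highest were miR-92a (0.28, SE 0.17), miR-19b (0.26, SE 0.12), miR-20a (0.18, SE 0.12) and miR-19a (0.18, SE 0.12), with adjusted p from 0.407 to 0.52 in limma. miR-19b read 10.64, 11.07 and 10.83 in GF and 10.52, 10.50 and 10.75 in DM, with 1 DM sample inside the GF range. Without GF replicates 2 and 4, miR-19b differed by 0.14, miR-19a by 0.11 and miR-92a by 0.18, and miR-92a was 0.16 without DM replicate 1 and 0.46 without DM replicates 3 and 5. The median of the list was 0.26 with the 75th percentile over all probes, 0.04 on the scale of the hur control spots, and -0.003 with normexp, where 4 of 9 were higher.

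The miRNAs of red cells, miR-451 and miR-144, were higher in GF by 0.26 (SE 0.20) and 0.19 (SE 0.20), and their DM samples spread widely. miR-451 was 12.38 in DM replicate 1 and 11.54 and 11.71 in the other DM samples, and 11.97 to 12.35 in GF, so the groups overlapped. Without DM replicate 1 the differences were 0.51 for miR-451 and 0.47 for miR-144. They were 0.092 and 0.060 without DM replicates 2 and 4, and 0.18 and 0.051 without DM replicates 3 and 5. Their summed signal was 4598 to 5935 in GF, 3445 to 6166 in DM and 6144 to 7340 in control samples. The part of blood content in differences of blood-cell miRNAs was not tested. Among the 7 tested leukocyte miRNAs, 5 were lower in GF (miR-142-5p, miR-142-3p, miR-342-3p, miR-146a and miR-146b) and 2 higher (miR-150 and miR-223, the latter of neutrophils and macrophages, at 0.15, SE 0.16), with a median of -0.37 against -0.08 for all tested. Among all tested miRNAs 117 of 165 were lower, a share like that of the leukocyte list, in which the miR-142 arms come from the same hairpin. With no scaling 5 of the 7 leukocyte miRNAs were higher. The summed signal of the leukocyte list, 5198 to 5927 in GF and 5538 to 6806.5 in DM, overlapped between the groups.

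Of the remaining lists, 0 members passed over distinct samples. Members of the miR-29 family, repressors of collagen genes, were higher by 0.16 (miR-29a, SE 0.14), 0.10 (miR-29b, SE 0.17) and 0.08 (miR-29c, SE 0.12). Of 8 let-7 miRNAs, which hold back growth, 2 were higher and 6 lower (median -0.02), with differences from -0.09 to 0.11, and all 8 were higher with quantile normalization or the 75th percentile over all probes. The 5 miR-30 miRNAs had 2 higher and 3 lower (median -0.02). Smooth muscle miR-143 and miR-145 differed by -0.005 and 0.11. The 5 stress and fibroblast miRNAs had 2 higher and 3 lower (median -0.08), with miR-21, which rises in cardiac fibroblasts under stress, at 0.10 (SE 0.15), and hypoxia-induced miR-210 at -0.08 (SE 0.11). Of 8 metabolic miRNAs, 4 were higher and 4 lower (median 0.04), and miR-107, linked to insulin sensitivity, stood at -0.002. Endothelial miRNAs were lower for 3 of 3 tested (median -0.18). The liver and islet miRNAs miR-122 and miR-375 and neural miR-124 were too dim to test, and the tested miR-128, miR-7a and miR-9 differed by 0.02, -0.05 and -0.39.

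**Figure D5:**
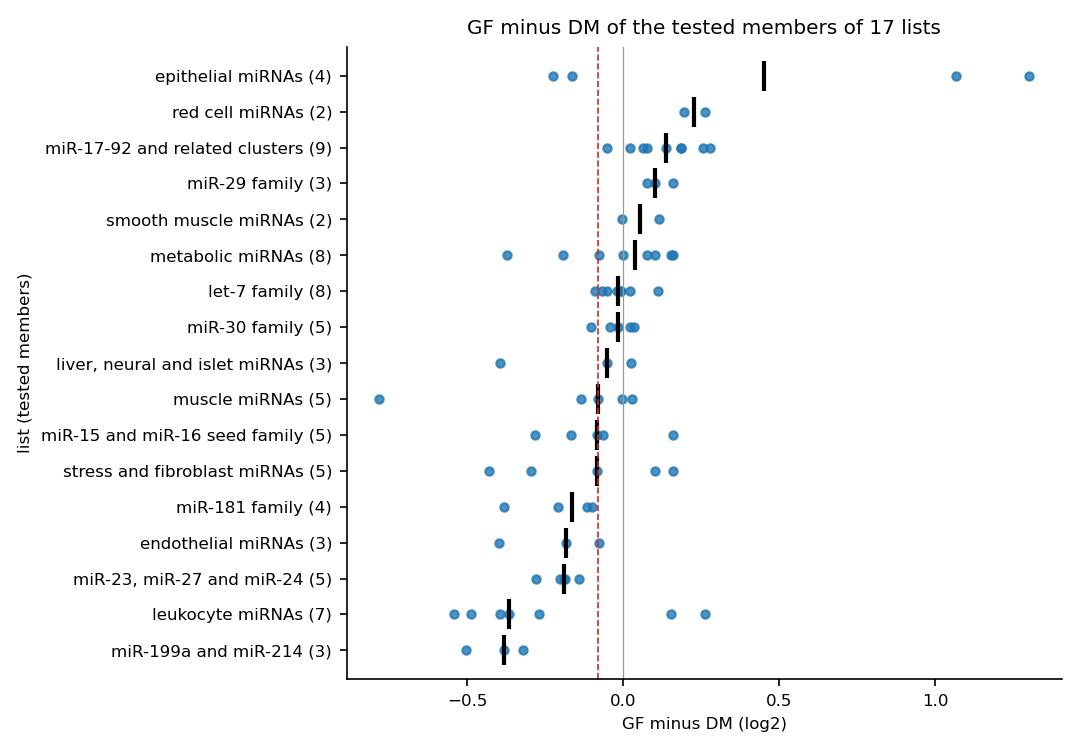
GF minus DM differences (log2, horizontal axis) of the tested members of 17 lists of related miRNAs over distinct samples; points are miRNAs, black ticks list medians, the dashed line is the median of all 165 tested miRNAs (-0.08), and numbers in brackets count tested members. The list of miR-199a and miR-214 (median -0.38) and the leukocyte list (-0.37) have the lowest medians, and the epithelial list holds miR-141 and miR-200c at its right end and 2 members below 0.

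The 10 miRNAs with the strongest signal on these arrays included miR-133b, miR-1, miR-22, miR-29b, miR-29a, let-7f, miR-23a, let-7a, miR-126 and miR-143. Their differences ran from -0.32 (miR-22) to 0.16 (miR-29a), with standard errors from 0.081 to 0.17. Both arms were tested for 23 hairpins, and the 2 arms had the same sign in 15 of them. The arms of 1 hairpin differed in their GF minus DM value by a median of 0.11 and by at most 0.24 (miR-378).

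The authors' deposited table of the comparison lists 20 miRNAs, all 20 of them higher in GF, with log2 differences from 0.38 to 1.62 (median 0.56). In the scaled values used here the same 20, which the authors listed from these same arrays, had a median of 0.13. Of them 19 were higher and 1 lower (miR-301a, -0.04), against 48 higher among all 165 tested. The 6 miRNAs past the threshold in the 15 arrays were all lower in GF, so it says little that 0 of the 20 were among them. The deposited log2 values were recomputed from the total gene signals with no scaling between arrays, with a largest deviation of 2.05e-06. Their GF minus DM group means matched the 20 differences of the comparison table to within 9.08e-06, so that table holds no scaling between arrays either. For miR-141 the authors' deposited table gave 1.62, for miR-200c 1.38, for miR-451 0.72 and for let-7e 0.38, against 1.30, 1.07, 0.26 and 0.02 here. Both miR-141 and miR-200c were thus at the top in either set of values, which come from the same arrays.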

How the data were processed

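Per the labels' protocols, RNA of heart tissue was labelled with Cy3 and hybridised to one-colour arrays, and signals were extracted, per the file headers, by version 9.5.3.1 of Agilent Feature Extraction. The deposited array files give an intensity for each spot with background already subtracted and no scaling between arrays. A deposited table of 149 miRNAs that the authors filtered gives log2 values, which matched the log2 total signal of a miRNA minus its control mean to within 2.05e-06. Their comparison table gives log2 differences and a p-value from a test of 3 groups, per the file headers. The software for both tables was not given in the sources used here.

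Spots with a flag from the scanner software were dropped (153 to 294 per array). Spot intensities were divided by a factor per array (0.771 to 1.51) that set a common 75th percentile for the 254 probes that every one of the 15 arrays detected above background. Scaled values below 19.8 (4.31 on the log2 scale), the median across arrays of an array's lowest probe signal above background, were raised to that floor. Log2 values were then averaged by probe. The brightest probe stood for a miRNA, and 165 of 350 miRNAs passed the filter (that probe well above background on 3 or more arrays in any group). Near-identical arrays (reduced chi-square under 1 over 156 miRNAs) were averaged. Then limma 3.58.1 (R 4.3.3, lmFit and eBayes, two-sided, Benjamini-Hochberg) was fitted to the 3 groups together, with a threshold of 0.05. The fit was tested on simulated data. The normexp alternative used the median spot signal. Tables and plots used pandas 2.3.3, numpy 2.4.6 and matplotlib 3.10.9 in Python 3.11.15.

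Named were the miRNAs past the threshold in either fit, their same-seed relatives and other arms, the 10 highest and 10 lowest differences, examples of the authors' comparison, up to 4 members of each list, and the 10 brightest. The members, lists and tests were chosen with earlier results of these data known. Alternatives covered scaling, background, probe summary, filter, slide, replicate number and leaving out samples. Array names were matched to RefSeq mature names by arm.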

Additional observations from a re-analysis of the deposited data

Results flagged for a closer look

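Among the 25 miRNAs at either end of the differences or past the threshold in 15 arrays, 5 had 1 control sample far from the other 3. Chance alone marks about 1 in 20 such groups, and the GF and DM groups, with 3 samples each, were too small for this check. In each of the 5 the sample was control replicate 5. Its log2 signal was 6.33 for miR-200c, where the other control samples read 4.83 to 5.01, and 5.25 for miR-141, where they read 4.31 to 4.34. It was 5.67 for miR-196c, against 6.66 to 6.82 in the others, but there the sample of control arrays 1 and 3 is the mean of 7.58 and 5.79, so that array 3 alone was almost as low. For miR-19b it was 10.53, against 10.34 to 10.37, and for miR-19a it was 7.75, against 7.43 to 7.49. In the limma fit these control values enter the GF minus DM comparison only through the shared spread. Control arrays also entered the scaling, the floor, the choice of probe and the filter, which were not redone. Without control replicate 5 in the fit, an alternative chosen after seeing the data, 0 miRNAs passed over distinct samples in limma, with 24 at an unadjusted p under 0.05.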

How the results depend on the processing

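Over distinct samples, the count of miRNAs past the threshold in limma was 0, and it was 1 with no scaling (miR-141), 1 with normexp (miR-142-5p) and 6 with all 15 arrays as independent. Leaving out 1 distinct sample gave 0 to 7. In the other alternatives tried, among them slightly wider merging of arrays, only GF and DM samples, other filters and summaries, it was 0. Over 15 arrays the count was 6, and 0 under the 75th percentile of all probes, 11 after quantile normalization, 11 with no scaling, 0 on the scale of the hur control spots, 13 with normexp; leaving out 1 array gave 2 to 13. Alternatives other than slide and replicate for the 15 arrays were added after the data were seen. With the replicate number as a replicate block, 1 miRNA passed (miR-342-3p). Deviations of GF and DM arrays of the same title number correlated at 0.10, -0.046, -0.47 and -0.28. Arrays 2 and 4 are a near-identical pair in both groups, so these few values are not independent. They cannot decide whether the samples were paired. With the slide as a block 5 passed.

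Of the named miRNAs, 38 of 75 turned from lower to higher in GF without scaling, and 37 of 72 in the authors' deposited log2 values. Where the unadjusted p in limma was under 0.05 with or without the alternative, the direction turned without scaling and in the authors' deposited log2 values, respectively, to 0.080 and 0.037 for miR-146a, 0.063 and 0.021 for miR-181d, 0.050 and 0.023 for miR-342-3p, 0.075 and 0.070 for miR-378, 0.16 and 0.14 for miR-497, 0.44 and 0.44 for miR-1, 0.44 and 0.44 for let-7f, 0.44 and 0.44 for let-7a, 0.13 and 0.12 for miR-199a-3p, 0.17 and 0.15 for miR-27a, 0.18 and 0.16 for miR-146b, and 0.12 and 0.12 for miR-22. For miR-301a it was 0.43 with the deposited values. Neither set is scaled between arrays, and the median of all tested miRNAs was 0.35 and 0.37 in them. Under the other scalings and summaries, from 3 to 18 of the 75 named miRNAs turned, with no unadjusted p under 0.05 on either side. Leaving out 1 sample moved 59 of the 75 by over 1.5 times, many of them close to 0. The GF minus DM brightness was 7.48 to 15.9 when 1 sample was left out. Dim miRNAs such as miR-196c and miR-139-3p, which lie at or near the floor in GF replicate 6, have sizes limited by the background. miR-141 reached the floor on control arrays only, though it was dim in DM replicates 2 and 4 (4.77 and 4.75).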
